A study of Mus musculus with 4 samples.

Results

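Fatty acid oxidation and carnitine genes were taken as a list of 33 gene symbols: the carnitine carriers and transferases, the enzymes of the mitochondrial and peroxisomal oxidation cycles, the electron transfer flavoprotein, a thioesterase and the nuclear receptor gene Ppard. All 33 were found among the 34745 genes of the expression table, and all 33 passed the filter on low counts. RNA was sequenced from naive splenic CD4+ T cells of C57BL/6 mice, cultured for 3 days under conditions that polarise them towards regulatory T (Treg) cells. The knockout-labelled libraries, numbered 22 and 24, carry the genotype label Setd2-CD4 cre, and the wild-type libraries are numbered 13 and 15. CD4-driven Cre recombines in the T-cell lineage from the thymus onwards. Setd2 encodes the enzyme that trimethylates lysine 36 of histone H3. The labels give neither the deleted exons nor the age of the mice. They also do not tie a library to its own animal, so a p-value here is set against a spread among libraries that could be purely technical.

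Long-chain fatty acids reach the mitochondrial matrix as carnitine esters. CPT1A forms the ester on the outer membrane, the translocase SLC25A20 carries it inwards and CPT2 returns the acyl group to coenzyme A. Each turn of the oxidation cycle then uses an acyl-CoA dehydrogenase, an enoyl-CoA hydratase, a hydroxyacyl-CoA dehydrogenase and a thiolase, and electrons from the acyl-CoA dehydrogenases leave through the electron transfer flavoprotein. Peroxisomes shorten very long and branched chains with their own enzymes. Regulatory T cells are known for drawing on fatty acid oxidation, while effector T cells lean on glycolysis.

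Library totals were 15594506 and 15653717 counts for knockout-labelled 22 and 24, and 16030869 and 14599957 counts for wild type 13 and 15. Setd2 measured 137 and 113 CPM (counts scaled to the normalised library size) in the knockout-labelled libraries, against 137 and 146 CPM in wild type (log2 fold change -0.17, SE 0.14, adjusted p = 0.436). The groups overlapped, and a whole-gene count does not test a deletion of some exons, so the label is used as a label. The T-cell genes Cd3d, Cd3e, Cd3g, Cd4, Trac and Cd5 summed to 2761 and 2770 CPM in the knockout-labelled libraries, against 2944 and 2785 CPM in wild type. None of them passed. Cd3g and Trac had both knockout-labelled libraries below wild type (log2 fold change -0.38 and -0.29). Cd5 had both above (0.13), and Cd3d, Cd3e and Cd4 overlapped. Of 4 Treg markers, Foxp3 fell, with 31.9 and 75.7 CPM in the knockout-labelled libraries, against 241 and 247 CPM in wild type (log2 fold change -2.18, adjusted p = 0.0233), and so did Il2ra (-0.52, adjusted p = 0.0304). Ctla4 and Ikzf2 had both knockout-labelled libraries above wild type without passing (log2 fold change 0.41 and 0.34, adjusted p = 0.0702 and 0.103). The B-cell markers Cd79a, Cd79b, Ms4a1 and Cd22 summed to 33.8 and 22.1 CPM in the knockout-labelled libraries, against 14.0 and 13.7 CPM in wild type. In these bulk samples, fewer cells of a type and less RNA per cell cannot be told apart.

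A single transporter gene of the list, Slc22a4, stood far above its wild-type level in the knockout-labelled libraries, and most of the other members did not pass the test. Of the 33 members, 1 rose (Slc22a4) and 2 fell (Acad11 and Decr1), by edgeR's quasi-likelihood test with Benjamini-Hochberg adjustment over 13279 genes and a threshold of 0.05. That is 9.09% of the members, where 10.1% of all genes tested passed, so the share of members called was near the background. By direction, 5.53% of all genes tested were called higher and 4.59% lower. The fitted log2 fold change lay within 0.5 of zero for 27 of the 33 members and for 68.2% of all genes tested, and within 0.25 for 16 members. The median was -0.04 over the members and -0.00133 over all genes tested. Summed over the 33 members, expression came to 1672 and 1637 CPM in the knockout-labelled libraries, against 1636 and 1638 CPM in wild type. The 4 sums lay within a few percent of each other, and knockout-labelled 22 was the highest.

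**Figure D1:**
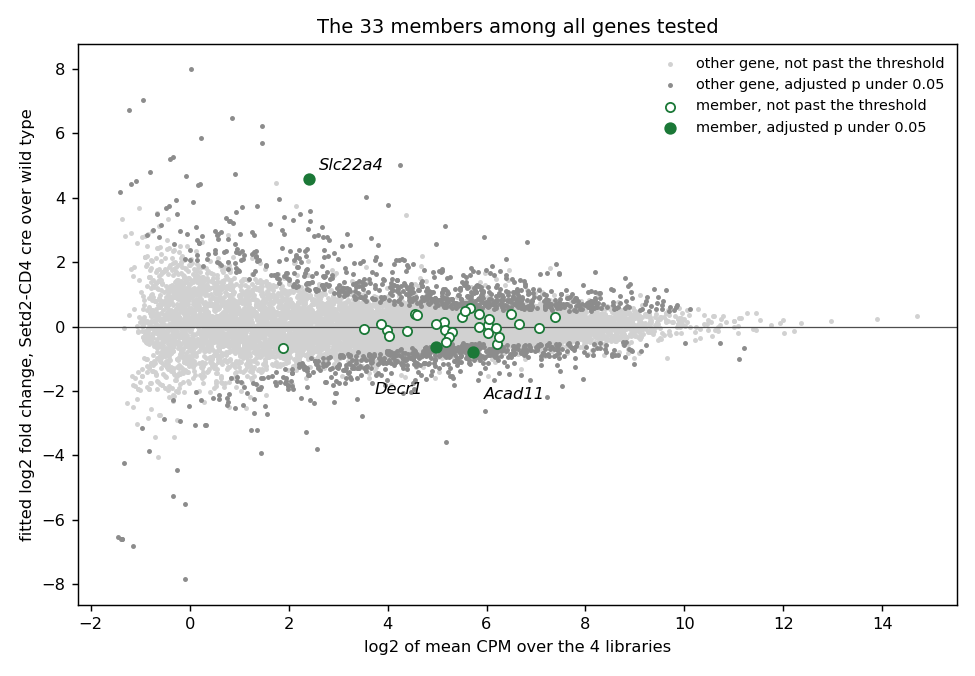
Fitted log2 fold change of knockout-labelled (Setd2-CD4 cre) over wild-type libraries against the log2 of mean CPM over the 4 libraries, one point per gene tested, with members as green circles. The 3 filled circles are Slc22a4, near the top of the plot at 4.58, and Acad11 and Decr1 at -0.79 and -0.62, while the open circles lie in the band of genes that did not pass.

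The groups did not overlap for 24 of the 33 members, 12 with both knockout-labelled libraries above both wild-type libraries and 12 with both below. Over all genes tested this held for 63.8%, with 31.1% above and 32.7% below, so a lack of overlap in 2 against 2 libraries is common in these data. Unadjusted p-values under 0.05 were found for 12 members, against 31.6% of all genes tested. Without knockout-labelled 24, 6 members were called higher and 5 lower, in a fit that called 30.2% of all genes. Without wild type 13 or without wild type 15, Slc22a4 was the one member called, in fits that called 2.33% and 1.37% of all genes. With so few libraries the smallest p of an exact permutation test on a single gene is 0.333, and the calls rest on the spread shared across genes. DESeq2 called 5 members where it called 15.1% of all genes tested, and the fit with no filter on low counts also called 5, where it called 12.5%. Against a minimum fold of 1.5, Slc22a4 was the 1 member called, beside 0.904% of all genes. Scaling by DESeq2 size factors (10.2% of all genes called), by library totals (10.9%), a filter of 1 CPM in 2 libraries (10.6%), robust dispersion (12.0%), limma-voom (9.92%) and limma on log2(FPKM + 0.1) (6.71%) each called 3 members. Limma on log2(FPKM + 1), which also called 6.71% of all genes, called 2, and the fit without knockout-labelled 22 called 3 where it called 13.8%.

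**Figure D2:**
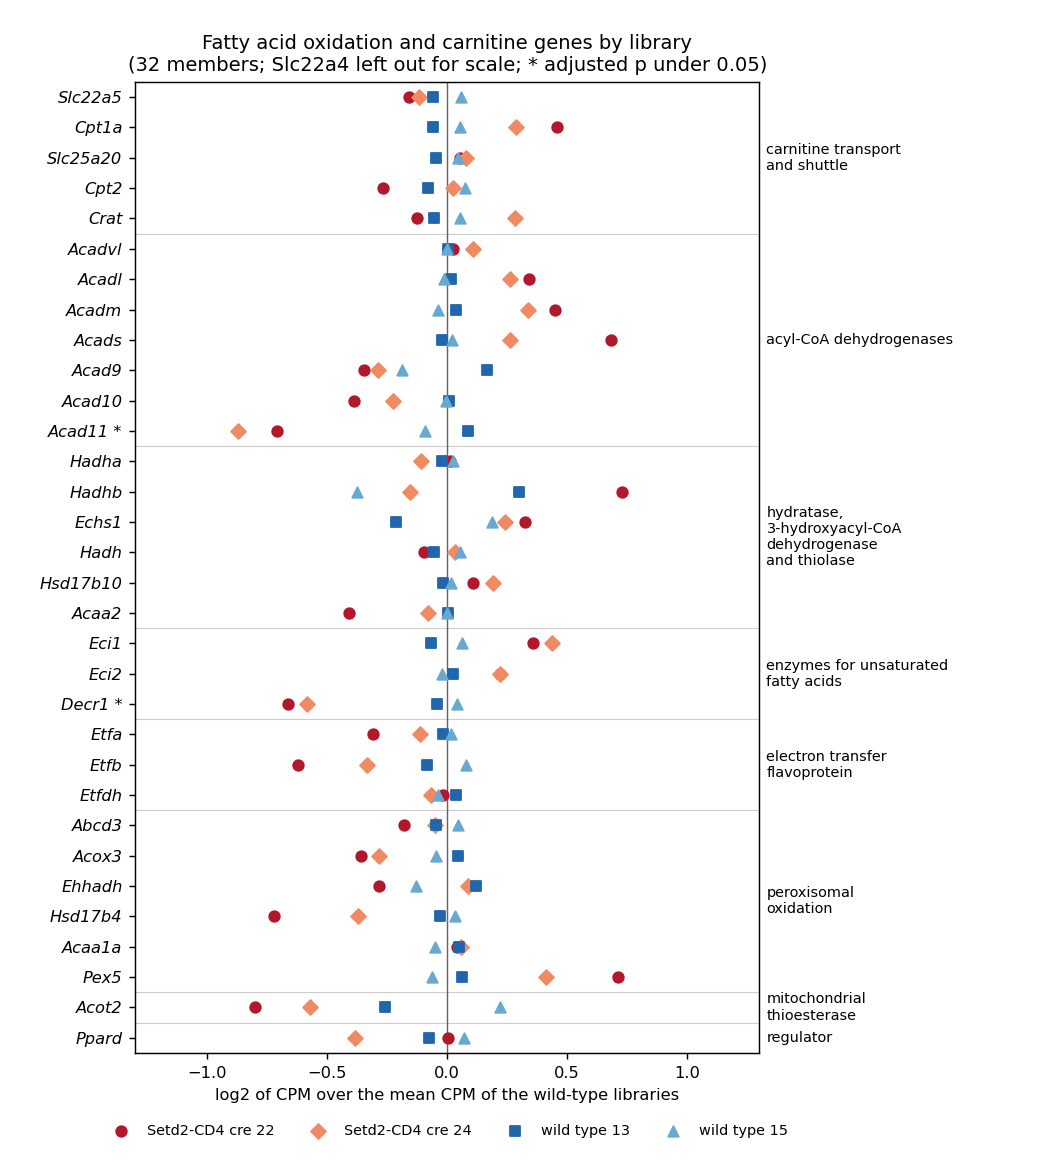
Each library's CPM over the mean of the wild-type libraries on a log2 scale for 32 members, grouped by role, with knockout-labelled 22 and 24 as red circles and orange diamonds and wild type 13 and 15 as blue squares and triangles. Acad11 and Decr1, marked with an asterisk, have both knockout-labelled points left of both wild-type points, Acadl, Acadm and Acads have them to the right, and Hadhb has replicates of either group far apart.

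Of the 6 carriers and transferases of the carnitine shuttle, Slc22a4 rose and 5 did not pass. Slc22a4 (ENSMUSG00000020334, chromosome 11, 53983123 to 54028090, minus strand, GRCm38) encodes OCTN1, a plasma membrane transporter known mainly for ergothioneine that also carries carnitine weakly. It was read 198 and 111 times in knockout-labelled 22 and 24, against 7 and 6 times in wild type 13 and 15. Scaled to the libraries, this was 13.2 and 7.08 CPM in the knockout-labelled libraries, against 0.429 and 0.402 CPM in wild type. Both knockout-labelled libraries were far above both wild-type libraries, and knockout-labelled 22 was 1.87 times knockout-labelled 24. The means were 10.2 ± 4.36 CPM and 0.415 ± 0.0187 CPM (SD, n = 2 each), a 24.0-fold rise (log2 fold change 4.58, SE 0.46, 95% interval 3.48 to 5.68, adjusted p = 0.0106).

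Slc22a4 had the 14th highest fitted log2 fold change of all genes tested. It passed the filter on low counts only through the knockout-labelled group. It was called under all 14 alternatives, with a log2 fold change of 4.07 to 4.96 when each library was left out in turn. Of the words of 50 bases in its longest annotated transcript, 2.98% also occurred in a transcript of another gene. The B-cell marker sums above were also highest in knockout-labelled 22 and next in knockout-labelled 24. All 4 of these markers had both knockout-labelled libraries above wild type, with log2 fold changes of 0.79 to 1.20 that did not pass, and their part in the Slc22a4 result was not tested. Myeloid markers summed to 19.2 and 24.2 CPM in the knockout-labelled libraries, against 20.1 and 25.7 CPM in wild type. Natural killer markers summed to 6.75 and 4.27 CPM, against 3.61 and 3.15 CPM in wild type, where Ncr1 had no count. Red-cell markers summed to 2.01 and 2.42 CPM, against 2.69 and 1.88 CPM, and the CD8 genes Cd8a and Cd8b1 to 182 and 78.4 CPM, against 125 and 183 CPM.

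**Figure D3:**
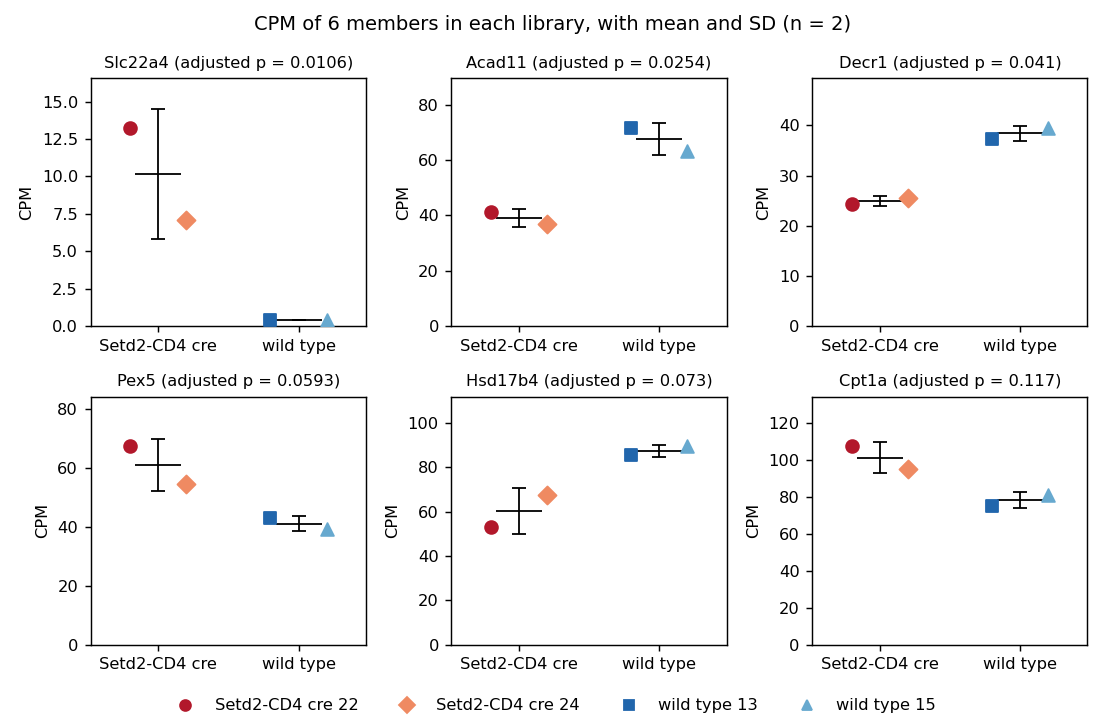
CPM of Slc22a4, Acad11, Decr1, Pex5, Hsd17b4 and Cpt1a in each library, knockout-labelled (Setd2-CD4 cre) on the left of each panel and wild type on the right, with the mean as a horizontal bar and the SD (n = 2) as an error bar; each axis starts at 0. The wild-type points of Slc22a4 lie just above the axis, at 0.429 and 0.402 CPM. In all 6 panels the groups do not overlap, as for 63.8% of all genes tested. The 9 members whose groups overlap are not shown here.

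The promoter of Slc22a4 and that of its paralogue Slc22a5 are shown because the genes lie in 1 cluster and Slc22a4 was called while Slc22a5 was not. They are the 250 bases before the RefSeq transcription start (GRCm38.p6, minus strand), at chr11:54028105-54028354 for Slc22a4 and chr11:53891704-53891953 for Slc22a5. Capitals mark the E-box CACGTG in Slc22a4 and the GC box GGGCGG, on either strand, in Slc22a5. Slc22a4 also holds 2 GC boxes, left in lower case, against 3 in Slc22a5.
Slc22a4: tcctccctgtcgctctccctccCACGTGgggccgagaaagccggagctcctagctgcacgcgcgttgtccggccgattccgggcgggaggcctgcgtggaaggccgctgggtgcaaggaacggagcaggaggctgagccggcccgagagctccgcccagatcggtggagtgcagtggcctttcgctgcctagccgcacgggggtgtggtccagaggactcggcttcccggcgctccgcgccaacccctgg
Slc22a5: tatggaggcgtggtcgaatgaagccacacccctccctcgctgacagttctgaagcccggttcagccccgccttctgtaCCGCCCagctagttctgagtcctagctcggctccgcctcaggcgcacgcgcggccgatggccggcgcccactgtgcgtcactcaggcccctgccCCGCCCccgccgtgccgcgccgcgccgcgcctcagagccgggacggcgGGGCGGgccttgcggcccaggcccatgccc
The GC content was 71.2% for Slc22a4 and 73.6% for Slc22a5, with 26 and 30 CpG dinucleotides, where the median over 32851 promoters was 52.4% and 6 CpG. The E-box of Slc22a4 begins 228 bases before the start. Promoters were found for 28 of the 33 members, and Slc22a4 was the 1 member with CACGTG, which 6.02% of all promoters hold on either strand. The GC box was in 20 of the 28 members and in 32.7% of all promoters. The nuclear receptor half-site AGGTCA was in 4 members (Acadm, Acadvl, Cpt1a and Echs1) and in 14.0% of all promoters. The RUNX motif TGTGGT was in 2 members (Slc22a4, beginning 47 bases before the start, and Slc25a20) and in 14.0% of all promoters, and the AP-1 motif TGANTCA was in 0 members and in 6.75% of all promoters. Both strands were searched for each motif. These are letter matches, not binding sites.

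Slc22a4 lies in a row of related transporter genes on chromosome 11. Of the 8 other genes tested whose start lies within 300 kb of the Slc22a4 start, 1 was called, and the median log2 fold change was -0.03. The called gene was Acsl6, an acyl-CoA synthetase gene that fell and whose start lies upstream, at -275708 bases along the strand of Slc22a4. Acsl6 passed the filter on low counts through the wild-type libraries. Slc22a21, the third member of the row, had 2.67 and 2.30 CPM in the knockout-labelled libraries, against 1.04 and 1.34 CPM in wild type (log2 fold change 1.06, adjusted p = 0.113). P4ha2, a collagen prolyl hydroxylase gene on the other side, had 5.55 and 5.42 CPM, against 2.82 and 2.28 CPM in wild type (log2 fold change 1.10, adjusted p = 0.0544). Pdlim4, which starts between P4ha2 and Slc22a4, had 6.35 and 16.3 CPM, against 20.6 and 18.8 CPM in wild type (log2 fold change -0.80, adjusted p = 0.220).

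**Figure D4:**
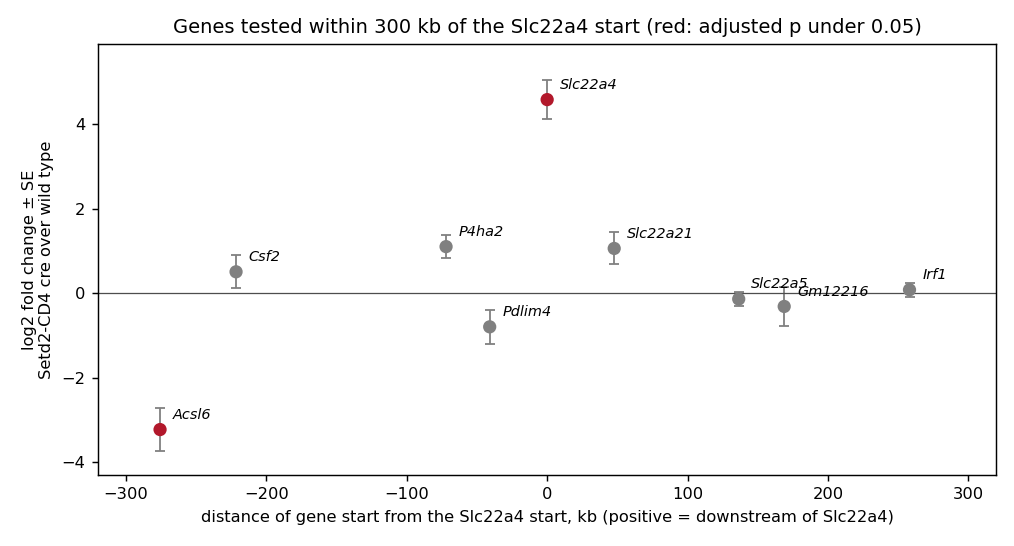
Log2 fold change with its SE, knockout-labelled (Setd2-CD4 cre) over wild type, for genes tested within 300 kb of the Slc22a4 start, against the distance of each gene's start in kb along the strand of Slc22a4. Slc22a4 at 4.58 and Acsl6 at -3.23 are the 2 red points past the threshold, and Slc22a5 and Irf1 lie near 0.

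Slc22a5 encodes OCTN2, the main carnitine uptake carrier of the plasma membrane, and starts 136 kb from Slc22a4. It measured 19.7 and 20.3 CPM in the knockout-labelled libraries, against 21.2 and 22.9 CPM in wild type. Both knockout-labelled values were slightly lower, with a log2 fold change of -0.14 (SE 0.16, 95% interval -0.52 to 0.24, adjusted p = 0.585). For Slc22a5, 27.1% of the words of its longest transcript were shared with another gene, nearly all with Slc22a21, so reads of the pair may be divided between them.

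Cpt1a, the entry step of the shuttle and the target of inhibition by malonyl-CoA, measured 107 and 95.2 CPM in the knockout-labelled libraries, against 75.01 and 81.1 CPM in wild type. The difference did not pass (log2 fold change 0.37, SE 0.14, adjusted p = 0.117). Both knockout-labelled libraries lay above both wild-type libraries, as they did for 31.1% of all genes tested. Over the 14 alternatives the log2 fold change of Cpt1a ran from 0.30 to 0.45. The remaining shuttle genes stood closer to wild type. Slc25a20, the translocase, had 32.2 and 32.7 CPM, against 30.01 and 31.9 CPM in wild type (log2 fold change 0.07, 95% interval -0.26 to 0.39). Cpt2, the inner transferase, had 13.7 and 16.8 CPM, against 15.6 and 17.4 CPM (log2 fold change -0.11, 95% interval -0.56 to 0.34). Crat, which moves acetyl groups between carnitine and coenzyme A, had 12.9 and 17.1 CPM, against 13.5 and 14.6 CPM (log2 fold change 0.09, 95% interval -0.40 to 0.58). Cpt2 and Crat overlapped between the groups.

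The acyl-CoA dehydrogenases carry out the first oxidation of each turn. Of the 7 genes, Acad11 fell and 6 did not pass. Acad11 (ENSMUSG00000090150, chromosome 9, 104063377 to 104127656, plus strand, GRCm38) encodes a family member that also carries a kinase-like domain. It measured 41.3 and 36.9 CPM in the knockout-labelled libraries, against 71.6 and 63.4 CPM in wild type. Both knockout-labelled libraries were lower, by more than the gap between replicates of either group. The means were 39.1 ± 3.11 CPM and 67.5 ± 5.83 CPM (SD, n = 2 each), 1.73-fold lower in the knockout-labelled libraries (log2 fold change -0.79, SE 0.14, adjusted p = 0.0254). The call of Acad11 was lost when wild type 13 (adjusted p = 0.144) or wild type 15 (0.09998) was left out, and against a minimum fold of 1.5 (0.350).

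The promoter window of Acad11 is shown as the called member with a RefSeq promoter besides Slc22a4, and lies at chr9:104063474-104063723 (GRCm38.p6, plus strand). The RefSeq start differs from that of the deposited table, and this window lies inside the Acad11 interval given above. Capitals mark the CCAAT box, read here on the other strand, whose first base is 88 bases before the RefSeq start. A GC box in lower case begins 70 bases before it.
Acad11: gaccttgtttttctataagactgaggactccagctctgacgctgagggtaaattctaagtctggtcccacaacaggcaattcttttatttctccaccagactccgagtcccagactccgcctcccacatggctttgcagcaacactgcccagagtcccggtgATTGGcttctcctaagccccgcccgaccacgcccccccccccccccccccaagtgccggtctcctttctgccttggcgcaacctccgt
Its GC content was 58.4%, with 10 CpG dinucleotides. The CCAAT box was in 13 of the 28 members with a promoter and in 33.8% of all promoters.

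The related dehydrogenase genes Acad9 and Acad10 also had both knockout-labelled libraries below wild type without passing. Of all genes tested, 32.7% lay below in this way. Acad9, which serves in the assembly of respiratory complex I as well, had 33.1 and 34.5 CPM, against 47.2 and 37.0 CPM in wild type (log2 fold change -0.32, adjusted p = 0.224). Acad10 had 13.8 and 15.5 CPM, against 18.2 and 18.0 CPM in wild type (log2 fold change -0.30, adjusted p = 0.268).

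The dehydrogenase genes for long, medium and short chains had fitted values above 0 and did not pass. Acadl, for long chains, measured 189 and 179 CPM in the knockout-labelled libraries, against 151 and 148 CPM in wild type (log2 fold change 0.30, SE 0.12, adjusted p = 0.132). Acadm, for medium chains, measured 67.8 and 62.9 CPM, against 51.1 and 48.4 CPM in wild type (log2 fold change 0.39, SE 0.13, adjusted p = 0.0902). Acads, for short chains, measured 63.3 and 47.3 CPM, against 38.9 and 40.1 CPM in wild type (log2 fold change 0.49, SE 0.17, adjusted p = 0.105). In each, both knockout-labelled libraries were above both wild-type libraries, as they were for 31.1% of all genes tested. Each was called under 1 of the 14 alternatives, the fit without knockout-labelled 24. Over the alternatives the log2 fold change ran from 0.24 to 0.34 for Acadl, 0.30 to 0.44 for Acadm and 0.27 to 0.68 for Acads. Acadvl, the membrane-bound enzyme for very long chains, measured 99.9 and 106 CPM, against 98.2 and 98.0 CPM in wild type (log2 fold change 0.07, 95% interval -0.23 to 0.36). Acadvl overlaps Dvl2 on the opposite strand, and 24.0% of the words of its longest transcript were shared with that gene.

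None of the 6 genes of the later steps of the mitochondrial cycle passed by edgeR's quasi-likelihood test or with DESeq2. With edgeR none had an unadjusted p under 0.05, against 31.6% of all genes tested. Hadha and Hadhb encode the subunits of the trifunctional protein and are transcribed away from each other, with starts 86 bases apart in the table. Hadha measured 138 and 126 CPM in the knockout-labelled libraries, against 134 and 139 CPM in wild type (log2 fold change -0.05, 95% interval -0.34 to 0.25). Hadhb measured 35.2 and 19.1 CPM, against 26.1 and 16.4 CPM in wild type (log2 fold change 0.35, 95% interval -0.46 to 1.16). The Hadhb values differed 1.85-fold between the knockout-labelled libraries and 1.60-fold between the wild-type libraries, more than the groups did. The count of Hadha was 3.91 and 6.63 times that of Hadhb in the knockout-labelled libraries, and 5.14 and 8.48 times in wild type.

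Echs1, the short-chain hydratase, had 51.6 and 48.6 CPM in the knockout-labelled libraries, against 35.5 and 46.9 CPM in wild type (log2 fold change 0.28, adjusted p = 0.282). Hadh, the hydroxyacyl-CoA dehydrogenase for shorter chains, had 54.5 and 59.6 CPM, against 56.0 and 60.5 CPM (log2 fold change -0.03, 95% interval -0.34 to 0.28). Hsd17b10, whose product also serves in mitochondrial RNA processing, had 36.2 and 38.4 CPM, against 33.3 and 33.98 CPM (log2 fold change 0.15, adjusted p = 0.465). The thiolase gene Acaa2 had 30.8 and 38.7 CPM, against 40.9 and 40.8 CPM in wild type (log2 fold change -0.23, adjusted p = 0.340). Acaa2 was called under 1 of the 14 alternatives, the fit without knockout-labelled 24, which was the knockout-labelled library nearer to wild type. Over the alternatives its log2 fold change ran from -0.41 to -0.07.

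Of the 3 enzymes that handle double bonds, Decr1 fell and 2 did not pass. Decr1 (ENSMUSG00000028223, chromosome 4, 15917240 to 15945507, minus strand, GRCm38) encodes the mitochondrial dienoyl-CoA reductase, which is needed to oxidise polyunsaturated chains. It measured 24.3 and 25.6 CPM in the knockout-labelled libraries, against 37.3 and 39.5 CPM in wild type. The replicates of each group lay close together and the groups were well apart. The means were 24.9 ± 0.921 CPM and 38.4 ± 1.55 CPM (SD, n = 2 each), 1.54-fold lower in the knockout-labelled libraries (log2 fold change -0.62, SE 0.14, adjusted p = 0.0410). The call of Decr1 was lost when wild type 13 (adjusted p = 0.203) or wild type 15 (0.328) was left out, against a minimum fold of 1.5 (0.904) or with limma on log2(FPKM + 1) (0.0518). No word of its longest transcript was shared with another gene.

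The isomerase genes Eci1 and Eci2 had fitted values above 0. Eci1 had 26.1 and 27.6 CPM in the knockout-labelled libraries, against 19.5 and 21.3 CPM in wild type (log2 fold change 0.40, SE 0.16, adjusted p = 0.137). Eci2 had 71.3 and 71.2 CPM, against 62.2 and 60.2 CPM in wild type (log2 fold change 0.22, SE 0.12, adjusted p = 0.265). Neither passed. Both knockout-labelled libraries lay above both wild-type libraries for each, as they did for 31.1% of all genes tested.

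The electron transfer flavoprotein genes all had fitted values below 0, and none passed by edgeR's quasi-likelihood test or DESeq2. With edgeR, Etfb had an unadjusted p under 0.05, as did 31.6% of all genes tested. Etfb, the beta subunit, had 27.5 and 33.6 CPM in the knockout-labelled libraries, against 39.9 and 44.8 CPM in wild type (log2 fold change -0.47, SE 0.16, adjusted p = 0.0979). Etfb was called under 1 of the 14 alternatives, the fit without knockout-labelled 24. Over the alternatives its log2 fold change ran from -0.62 to -0.32. The count of Etfb is uncertain, since 67.3% of the words of its longest transcript also occur in transcripts of the gene model Gm45233. Etfa, the alpha subunit, had 56.6 and 64.7 CPM, against 69.3 and 70.9 CPM in wild type (log2 fold change -0.21, adjusted p = 0.323). Etfdh, which passes the electrons on to ubiquinone, had 72.9 and 70.5 CPM, against 75.7 and 72.0 CPM in wild type (log2 fold change -0.04, 95% interval -0.34 to 0.26).

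Among the 6 peroxisomal genes none passed by edgeR's quasi-likelihood test. Of these, 3 (Pex5, Hsd17b4 and Acox3) had an unadjusted p under 0.05, as did 31.6% of all genes tested. Pex5, the receptor that imports peroxisomal enzymes, measured 67.3 and 54.6 CPM in the knockout-labelled libraries, against 42.8 and 39.3 CPM in wild type (log2 fold change 0.57, SE 0.15, adjusted p = 0.0593). Hsd17b4, the bifunctional enzyme for branched and very long chains, measured 53.1 and 67.5 CPM, against 85.6 and 89.4 CPM in wild type (log2 fold change -0.54, SE 0.16, adjusted p = 0.0730). Both genes lay on the margin of the threshold. Pex5 and Hsd17b4 were each called under 3 of the 14 alternatives. These were DESeq2 (adjusted p = 0.0314 and 0.0437), no filter on low counts (0.0289 and 0.0440) and the fit without knockout-labelled 24. DESeq2 called 15.1% of all genes tested, and the fit with no filter 12.5%. Over the alternatives the log2 fold change ran from 0.42 to 0.71 for Pex5 and from -0.73 to -0.36 for Hsd17b4.

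Acox3, an oxidase for branched chains, had 66.0 and 69.5 CPM in the knockout-labelled libraries, against 87.4 and 82.0 CPM in wild type (log2 fold change -0.32, adjusted p = 0.141). Ehhadh, the other bifunctional enzyme, had 9.76 and 12.6 CPM, against 12.9 and 10.9 CPM (log2 fold change -0.09, 95% interval -0.60 to 0.43). The thiolase gene Acaa1a had 65.9 and 66.8 CPM, against 66.4 and 61.9 CPM (log2 fold change 0.05, 95% interval -0.25 to 0.35). For Acaa1a, 16.2% of transcript words were shared, mostly with its paralogue Acaa1b. Abcd3, which brings fatty acyl chains into the peroxisome, had 32.8 and 35.8 CPM, against 35.9 and 38.3 CPM (log2 fold change -0.11, 95% interval -0.44 to 0.21). The knockout-labelled 24 and wild type 13 values of Abcd3 were nearly equal.

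Acot2, a mitochondrial thioesterase that releases free fatty acid from coenzyme A, was the lowest member by CPM in the knockout-labelled libraries and, after Slc22a4, the second lowest in wild type. It had 2.61 and 3.06 CPM in the knockout-labelled libraries, against 3.80 and 5.30 CPM in wild type (log2 fold change -0.68, SE 0.31, adjusted p = 0.191). Of its transcript words, 27.7% were shared, mostly with the paralogue Acot1, so its count is uncertain. Acot1 itself was read 57 and 51 times in the knockout-labelled libraries, against 34 and 15 times in wild type (log2 fold change 1.18, adjusted p = 0.111), and Acot2 39 and 48 times, against 62 and 79 times. Ppard, the lipid-sensing nuclear receptor gene of the list, had 42.1 and 32.2 CPM, against 39.9 and 44.2 CPM in wild type (log2 fold change -0.18, 95% interval -0.58 to 0.22). Knockout-labelled 22 lay within the wild-type range and knockout-labelled 24 below it.

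Levels were compared between members with the deposited FPKM, which divide by gene length. Acadl was the highest member, with a mean of 88.5 FPKM in the knockout-labelled libraries and 74.7 FPKM in wild type. Etfa followed, with 27.1 FPKM and 32.6 FPKM. Slc22a4 was the lowest of the 33 in wild type at 0.139 FPKM, and averaged 3.24 FPKM in the knockout-labelled libraries. Cpt1a averaged 23.0 FPKM and 18.5 FPKM, and Cpt2, the next transferase, 2.83 FPKM and 3.18 FPKM. The order depends on the length used. The length implied by count and FPKM was 0.96 to 3.65 times the longest annotated transcript, and over 1.5 times it for 22 members. Per kilobase of the longest transcript, Acadl and Etfa still ranked 1 and 2 in wild type, while Acadm ranked 9 in place of 17 and Cpt1a 15 in place of 7.

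Beyond the members, 112 other genes of the pathway were followed, from fatty acid activation to the receptors that control the program. Of the 96 that passed the filter, 3 rose and 4 fell, or 7.29%, beside the 10.1% of all genes tested. Their median log2 fold change was -0.04. Plin2, a coat protein gene of lipid droplets, had 42.3 and 38.1 CPM in the knockout-labelled libraries, against 24.9 and 25.3 CPM in wild type (log2 fold change 0.68, adjusted p = 0.0345). Pnpla2, the lipase that opens triglyceride breakdown, had 86.0 and 71.0 CPM, against 50.3 and 50.9 CPM (log2 fold change 0.63, adjusted p = 0.0435). Etfbkmt, which methylates the flavoprotein beta subunit, had 31.1 and 31.1 CPM, against 19.6 and 20.0 CPM (log2 fold change 0.65, adjusted p = 0.0417). In all 3 genes both knockout-labelled libraries lay above both wild-type libraries.

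The 4 genes that fell came from different lists. Acsl6 was read 4 and 11 times in the knockout-labelled libraries, against 61 and 83 times in wild type (log2 fold change -3.23, SE 0.50, adjusted p = 0.0204). Sardh, the sarcosine dehydrogenase, was read 8 and 18 times, against 55 and 57 times in wild type (log2 fold change -2.08, SE 0.44, adjusted p = 0.0368). Both are low genes, and both knockout-labelled libraries had fewer reads than either wild-type library. Both genes passed the filter on low counts through the wild-type libraries, since knockout-labelled 22 was below the minimum count of 10. Mmut, the mutase at the end of propionate breakdown, had 16.2 and 14.4 CPM, against 33.6 and 27.4 CPM in wild type (log2 fold change -0.997, adjusted p = 0.0265). The other propionate genes Pcca, Pccb and Mcee, named after their values were seen, also had both knockout-labelled libraries below wild type without passing. Over all genes tested, 32.7% had both knockout-labelled libraries below both wild-type libraries. The median log2 fold change of the 4 propionate genes was -0.57. Bdh1, a ketone body dehydrogenase, had 25.8 and 30.7 CPM, against 42.4 and 47.5 CPM in wild type (log2 fold change -0.67, adjusted p = 0.0431).

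The 7 calls among these genes also depended on single libraries and on the test. Without wild type 15 all 7 missed the threshold (adjusted p = 0.0750 to 0.318), without wild type 13 all but Acsl6 did (0.1045 to 0.271), and against a minimum fold of 1.5 all 7 did (0.0575 to 0.874). Without knockout-labelled 22, Sardh and Bdh1 missed it (0.0532 and 0.0518), and with libraries scaled by their totals Etfbkmt did (0.0536). With limma on log2(FPKM + 1), Sardh and Mmut were the 2 that passed (0.0447 and 0.0377).

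**Figure D5:**
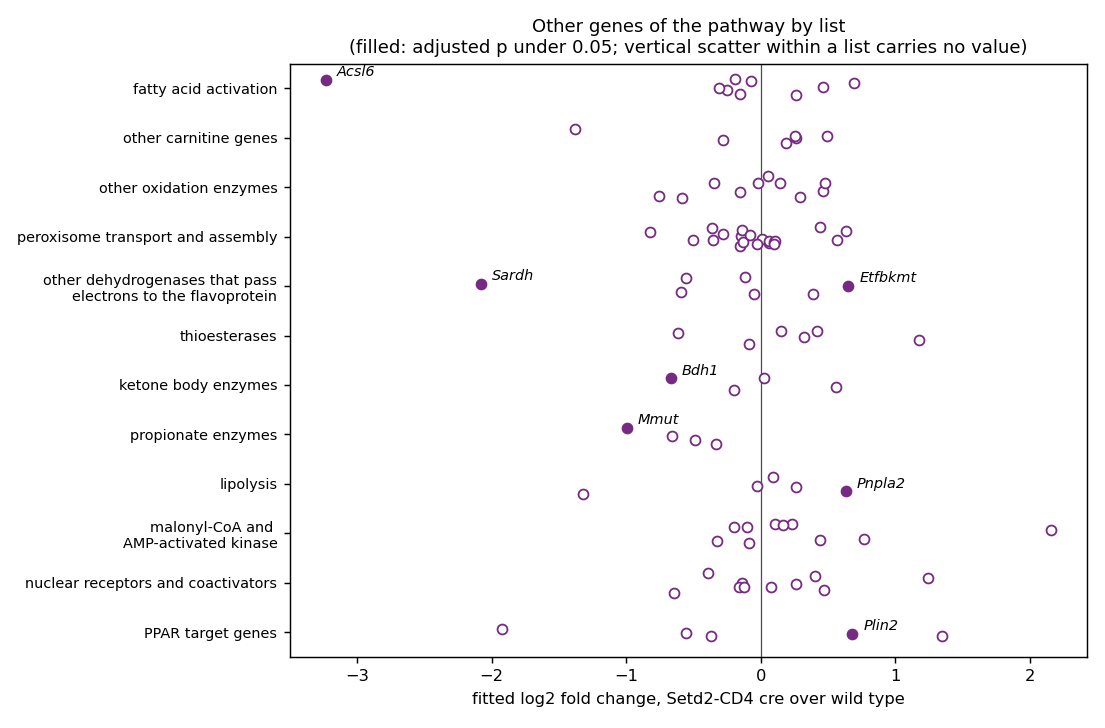
Fitted log2 fold change, knockout-labelled (Setd2-CD4 cre) over wild type, of the 96 other pathway genes tested, in rows by list, with filled circles for the 7 genes past the threshold. Acsl6, Sardh, Mmut and Bdh1 lie to the left of 0, Plin2, Pnpla2 and Etfbkmt to the right, and most open circles lie between -1 and 1.

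Several other genes were named whatever their values, and were too low to test or did not pass by edgeR's quasi-likelihood test. Cpt1b, the muscle form of the transferase, was read 1 and 71 times in knockout-labelled 22 and 24, against 113 and 77 times in wild type (adjusted p = 0.375). Its knockout-labelled replicates were far apart, at 0.0669 and 4.53 CPM, against 6.92 and 5.16 CPM in wild type. Ppara was read 3 times in knockout-labelled 22 and in no other library, and Ppargc1a in none, where 3 counts equal 0.184 to 0.201 CPM. Acaca and Acacb make malonyl-CoA, which inhibits CPT1A. Acaca had 53.6 and 41.0 CPM, against 48.6 and 51.8 CPM in wild type (log2 fold change -0.09, adjusted p = 0.744), and Acacb 6.62 and 6.06 CPM, against 4.29 and 3.15 CPM (log2 fold change 0.77, adjusted p = 0.110). Prkaa1, a catalytic subunit of AMP-activated kinase, had 65.9 and 69.2 CPM, against 62.5 and 63.2 CPM (log2 fold change 0.10, adjusted p = 0.596). Acsl1, an acyl-CoA synthetase, had 9.49 and 16.1 CPM, against 18.7 and 10.6 CPM (log2 fold change -0.19, adjusted p = 0.736). Lpcat4, the acyltransferase in the title of the series, is given as context. It had 20.5 and 29.7 CPM, against 42.8 and 38.5 CPM in wild type (log2 fold change -0.70, adjusted p = 0.0712). Lpcat4 was called lower with DESeq2 (adjusted p = 0.0342) and with no filter on low counts (0.0262).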

How the data were processed

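RNA for 2 knockout-labelled and 2 wild-type libraries was sequenced on an Illumina HiSeq instrument after TRIzol extraction, per the labels' protocols. Bowtie2, RSEM and the build GRCm38.p6 (mm10) are named in the submitters' processing notes. Their versions, the annotation and the strand setting were not given in the sources used here. Reads from opposite strands of 1 place can therefore not be separated. The authors deposited whole-number counts per gene and FPKM values, 1 column of each per library, per the file headers.

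Counts were fitted with edgeR 4.0.16 in R 4.3.3: filterByExpr (minimum count 10, minimum total 15), TMM scaling (factors 0.959, 1.00, 1.02 and 1.02 for knockout-labelled 22 and 24 and wild type 13 and 15), glmQLFit, and glmQLFTest without covariates (two-sided), with Benjamini-Hochberg adjustment over all genes tested. The SE of a log2 fold change is its size over the square root of F, and the 95% interval uses the moderated degrees of freedom; both are approximate and unadjusted. Replicates differed by more than counting noise (chi-square per degree of freedom 30.2 in the knockout-labelled pair and 9.72 in wild type). The fit was tested on simulated data. Named genes were all members, pathway genes past the threshold and 11 genes fixed whatever their values; some results under this rule are not reported here. Neighbours, overlapping genes, Acot1, Pcca, Pccb, Mcee, Il2ra, Ctla4 and Ikzf2 were named after their values were seen. Members and lists were chosen with earlier results of these data known. Of 178 list genes, 175 matched a symbol of the table and 3 an identifier or older symbol. Lengths and transcript words came from GENCODE M21 (either strand), and promoters from RefSeq (GRCm38.p6).

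Alternatives were DESeq2 size factors (RLE) or library totals for scaling, other filters on low counts, robust dispersion, a minimum fold of 1.5 (glmTreat), DESeq2 1.42.0, limma-voom, limma 3.58.1 on log2(FPKM + 1) and log2(FPKM + 0.1), and leaving out each library, where a lone library is assumed to vary like the other group. Plots used matplotlib 3.10.9.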

Additional observations from a re-analysis of the deposited data

How the results depend on the processing

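Slc22a4 was called higher under all 14 alternatives, with a log2 fold change of 1.86 on the log2(FPKM + 1) scale and of 4.07 to 4.96 with each library left out. With each library left out in turn, 1 to 6 members were higher and 0 to 5 lower, 0 to 14 other pathway genes higher and 0 to 14 lower, and 120 to 2122 of all genes higher and 70 to 2002 lower. The fits that called no member lower (edgeR, without wild type 13 or 15) held 5 and 3 members with an unadjusted p under 0.05. Against a minimum fold of 1.5, 0 members were lower, 0 other pathway genes were higher and 0 lower, and 85 of all genes were higher and 35 lower. With no filter on low counts, 2 members and 6 other pathway genes were higher, and 1261 of all genes were higher and 1088 lower. DESeq2 gave 2 members and 6 other pathway genes higher. With limma on log2(FPKM + 1), 1 member was lower, 0 other pathway genes were higher and 2 lower, and 445 of all genes were higher; on log2(FPKM + 0.1), 0 other pathway genes and 457 of all genes were higher. With the minimum fold, 2 members and 5 other pathway genes had an unadjusted p under 0.05, beside 1448 of all 13279 genes tested. With limma on log2(FPKM + 1) and log2(FPKM + 0.1), 30 and 34 other pathway genes had one, beside 4125 and 4134 of all genes. The cause of these moves was not tested. A minimum fold makes a test stricter by construction, while the fits with a library left out moved in both directions.

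Direction turned for 7 members, of which Hadhb alone had a log2 fold change over 0.2 in size, and for Acsl1 and Acaca among the other named genes. Acaa1a had a log2 fold change of -0.00889 with libraries scaled by their totals, -0.00770 on log2(FPKM + 1) and -0.00847 on log2(FPKM + 0.1). With each library left out the log2 fold change ran from -0.00766 to 0.0927 for Acaa1a, -0.270 to 0.0356 for Cpt2, -0.129 to 0.291 for Crat, -0.100 to 0.00830 for Hadha, -0.149 to 0.724 for Hadhb, -0.0993 to 0.0436 for Hadh, -0.290 to 0.0958 for Ehhadh, -0.632 to 0.269 for Acsl1 and -0.282 to 0.0889 for Acaca. Over the 462 pairs of a member and an alternative, 431 kept both direction and side of the threshold. Most pairs belong to the 30 members not called, for which staying uncalled counts as kept. Of the called members, Slc22a4 kept its call under 14 alternatives, Acad11 under 11 and Decr1 under 10. No paired analysis was possible because the library numbers 13, 15, 22 and 24 are not shared between the groups.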
